A study of Mus musculus with 6 samples.

Results

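The genes described here are 10 components of the circadian clock in mouse tibialis anterior muscle: Arntl, Clock, Per1, Per2, Per3, Cry1, Nr1d1, Nr1d2, Dbp and Tef. They were taken by name, as the probe sets whose only gene symbol in the platform annotation is 1 of these. Each gene had exactly 1 such probe set, so the members are 10 of the 35557 probe sets on the array. The series holds 6 Affymetrix arrays, 3 of muscle from control C57Bl6J mice and 3 of muscle from mice labelled MLC-SOCS-3/C57Bl6J, which carry a SOCS-3 transgene. SOCS-3 is an intracellular inhibitor of cytokine receptor and insulin receptor signalling. Mice of both groups were 11 weeks old and were starved for 6 h before the muscle was removed and frozen. The driver behind the letters MLC, the number of transgenic lines, the sex of the mice and the clock time at which muscles were taken do not appear in the labels. The last of these matters for clock genes, because their level depends on the hour. Nothing in the labels says that the replicates are separate animals, so p-values reflect only the scatter among these 6 samples, part or all of which may be technical.

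The mammalian clock is a feedback loop of transcription. The ARNTL (also called BMAL1) and CLOCK proteins bind E-boxes and switch on the Per, Cry, Nr1d and Dbp genes. The PER and CRY proteins then block ARNTL and CLOCK, and the NR1D proteins (REV-ERBs) silence Arntl through ROR elements. Dbp, Tef and Hlf encode proteins that activate genes through D-boxes, and Nfil3 encodes the repressor of the same sites. In muscle, as in other peripheral tissues, Arntl is therefore high when the mRNA of genes such as Dbp and Per3 is low, and the reverse some hours later. Starvation, handling and glucocorticoid hormone can also act on this loop, Per1 in particular.

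The stretches below are shown because they hold the letters of the E-box, D-box or ROR element, the kinds of element through which the loop is known to run. They come from RefSeq promoter windows (build GRCm38.p6, from 250 bases before to 50 bases after each annotated start), which matched 9 of the 10 genes in 14 windows (Per2 was not matched). The letters searched, on both strands, were CACGTG for the E-box and TTACGTAA or TTATGTAA for the D-box. The ROR element was searched on both strands as well, and no match of 1 kind overlapped a match of another. Each is written 5′ to 3′ on the strand of the gene, with the match in capitals.
Per3, chr4:151044796-151044890, minus strand, 225 to 131 bases before the start: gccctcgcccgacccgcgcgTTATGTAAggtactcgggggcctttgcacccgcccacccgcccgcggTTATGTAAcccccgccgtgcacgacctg
Per1, chr11:69098763-69098808, plus strand, 186 to 141 bases before the start: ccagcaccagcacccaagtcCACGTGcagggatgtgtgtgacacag
Cry1, chr10:85185089-85185134, minus strand, 80 to 35 bases before the start: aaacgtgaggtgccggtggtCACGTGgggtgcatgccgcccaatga
Tef, window 1, chr15:81802526-81802571, plus strand, 147 to 102 bases before the start: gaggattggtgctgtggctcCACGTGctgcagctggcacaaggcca
Tef, window 2, chr15:81811256-81811301, plus strand, 158 to 113 bases before the start: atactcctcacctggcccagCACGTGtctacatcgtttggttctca
Arntl, window 2, chr7:113207528-113207557, plus strand, with the match beginning at base 28 after the start: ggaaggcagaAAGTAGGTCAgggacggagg
The E-box letters stood in 4 of the 14 windows (3 genes), against 7.15% of all 32851 windows. The D-box letters stood in 1 of the 14, the Per3 window, which holds them at 2 places, against 1.06% of all windows. The ROR letters stood in 1 of the 14, a window of Arntl, against 0.606% of all windows. These windows are short, and a match is a description of the sequence, not a measured site.

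Each value is a log2 intensity from the authors' RMA processing. All 10 members lay above 5.99, the median probe set. All 12 skeletal muscle markers, such as Acta1 and Ckm, lay above it too, with a mean between 13.8 and 13.9 on every array. Limma called no marker of other cells. Of 7 adipocyte markers, all 7 had a positive difference (median 0.17). So had 7 of 7 connective tissue markers (median 0.16) and 7 of 8 macrophage markers (median 0.11), against 8728 of all 19938 genes. Of 6 endothelial markers, 4 were negative (median -0.05). The connective tissue mean deviated by -0.069 on MLC-SOCS-3 replicate 1, within the controls (-0.123 to -0.066). The macrophage mean deviated by -0.146 there, also within the controls (-0.293 to 0.038). The part of these markers in the clock values was not tested. Socs3 itself, the gene of the transgene, differed by -0.26 (limma adjusted p = 0.80) in its brighter probe set. In the other probe set it differed by -0.22 (limma adjusted p = 0.82). For both, every MLC-SOCS-3 array was below every control, as for 6.76% of all probe sets. Whether the Socs3 probes lie in the transgene is not stated, so the labels cannot be checked by them. Directions below are for the arrays as labelled.

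None of the 10 clock genes passed the test of MLC-SOCS-3 against control. Limma called 0 of the 10 at an adjusted p under 0.05, and 0 of the 10 had an unadjusted p under 0.05. Over all probe sets the same rules called 0 of 35557, or 0%, and 2105, or 5.92%. The differences, MLC-SOCS-3 minus control on the log2 scale, were negative for 8 of the 10 and positive for Arntl and Clock, with a median of -0.08. That median was -0.039 without MLC-SOCS-3 replicate 3, -0.041 without control replicate 2 and -0.13 without MLC-SOCS-3 replicate 1. Of the 19938 genes on the array 11210 were negative, with a median of -0.02. Within this comparison fewer cells of a type and less RNA per cell cannot be told apart. For each of the 10, the range within at least 1 of the groups was wider than the difference between the group means: Dbp, for example, read 9.98 and 9.20 on 2 arrays of the MLC-SOCS-3 group. These differences between arrays ran in opposite directions for Arntl and for Dbp, Per3 and Tef.

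**Figure D1:**
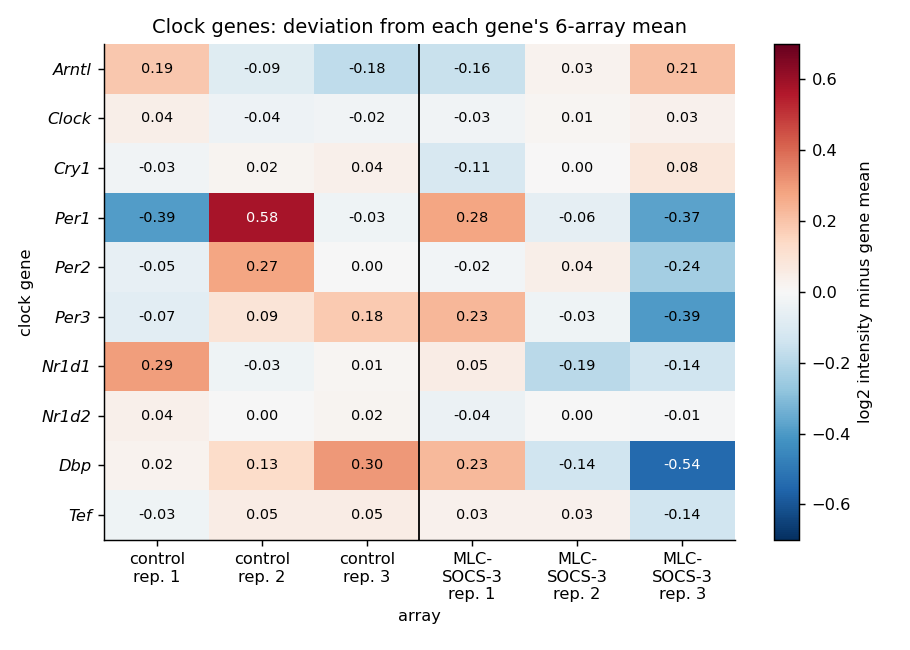
Deviation of each of the 10 clock genes (rows) from its own mean over the 6 arrays (columns), in log2 intensity, with controls left of the line and MLC-SOCS-3 right of it; red is above the mean and blue below. Arntl and Dbp had opposite signs on 5 of the 6 arrays, and MLC-SOCS-3 replicate 3 held the lowest Per2, Per3, Dbp and Tef and the highest Arntl and Cry1.

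Arntl, the activator on which the loop turns, read 8.48, 8.20 and 8.11 on control replicates 1, 2 and 3. It read 8.13, 8.32 and 8.50 on MLC-SOCS-3 replicates 1, 2 and 3. The groups overlapped completely: the highest arrays were MLC-SOCS-3 replicate 3 and control replicate 1, and the lowest were control replicate 3 and MLC-SOCS-3 replicate 1. The group means were 8.26 ± 0.19 and 8.32 ± 0.18 (SD, n = 3 each), a difference of 0.05 ± 0.14 (SE; 95% interval -0.28 to 0.38; limma adjusted p = 0.97). Its sign turned when either MLC-SOCS-3 replicate 3 (-0.039) or control replicate 3 (-0.024) was left out.

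Clock, the partner of Arntl, hardly varied. It read 8.35, 8.27 and 8.28 in controls and 8.28, 8.31 and 8.34 on the MLC-SOCS-3 arrays. These values span 0.08, and 98.7% of all genes spanned at least as much. It was opposite to Arntl in 4 of 15 pairs. The difference was 0.01 ± 0.06 (SE; 95% interval -0.14 to 0.16; limma adjusted p = 0.99).

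Dbp, which encodes a D-box activator and is among the strongest cycling transcripts of peripheral tissues, read 9.77, 9.87 and 10.05 in controls. It read 9.98, 9.61 and 9.20 on MLC-SOCS-3 replicates 1, 2 and 3. MLC-SOCS-3 replicate 3 was the lowest array and replicate 1 lay above 2 of the 3 controls, so the groups overlapped. The spread over the 6 arrays was 0.84, a 1.79-fold range, and 2.59% of all genes had a range this large or larger. The group means were 9.90 ± 0.14 and 9.60 ± 0.39 (SD, n = 3 each). The difference of -0.30 ± 0.20 (SE; 95% interval -0.79 to 0.19; limma adjusted p = 0.86) was the largest of the 10 in size, and it was -0.10 without MLC-SOCS-3 replicate 3 and -0.49 without MLC-SOCS-3 replicate 1.

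Per3, a member of the Period family of repressors whose promoter window holds the D-box letters shown above, read 7.63, 7.79 and 7.88 in controls. It read 7.93, 7.67 and 7.31 on MLC-SOCS-3 replicates 1, 2 and 3. The arrays labelled MLC-SOCS-3 held both the highest and the lowest value of the 6, a 1.54-fold range. The difference was -0.13 ± 0.17 (SE; 95% interval -0.54 to 0.28; limma adjusted p = 0.92), and it turned to 0.03 without MLC-SOCS-3 replicate 3.

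Tef, a relative of Dbp that binds the same D-boxes, kept an order close to that of Dbp (13 of the 15 pairs of arrays) over a narrower range. It read 9.95, 10.03 and 10.03 in controls and 10.01, 10.01 and 9.84 on MLC-SOCS-3 replicates 1, 2 and 3. Only control replicate 1 and MLC-SOCS-3 replicate 3 fell below 10. The range of 0.19 was reached or passed by 79.0% of all genes. The difference was -0.05 ± 0.08 (SE; limma adjusted p = 0.93), and 0.0062 without MLC-SOCS-3 replicate 3.

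The order of the arrays by Arntl was close to the reverse of their order by Dbp, Per3 and Tef. The 6 arrays form 15 pairs, and in 14 of the 15 the array with more Arntl had less Dbp. Per3 gave 14 of 15 as well, and so did Tef. Of the 19938 genes, 138 (0.692%) were ordered against Arntl in 14 or more pairs, and the median gene was in 7. Of these pairs, 6 lie within a group, and all 3 genes were opposite to Arntl in 6 of the 6. For Tef some of these orders rest on near-ties. MLC-SOCS-3 replicates 1 and 2 read 10.0084 and 10.0077, and control replicates 2 and 3 read 10.0277 and 10.0303. The within-group SD of Tef was 0.078. Arntl, the reference of these counts, had near-ties as well. It read 8.499 on MLC-SOCS-3 replicate 3 and 8.477 on control replicate 1. On MLC-SOCS-3 replicate 1 and control replicate 3 it read 8.134 and 8.111. The within-group SD of Arntl was 0.186. The muscle marker Pvalb, with a range of 0.09, also gave 14 of 15 and 6 of 6. With any single array left out, Dbp, Per3 and Tef were each opposite in 9 or 10 of the 10 remaining pairs. These counts describe the 6 arrays and carry no test.

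**Figure D2:**
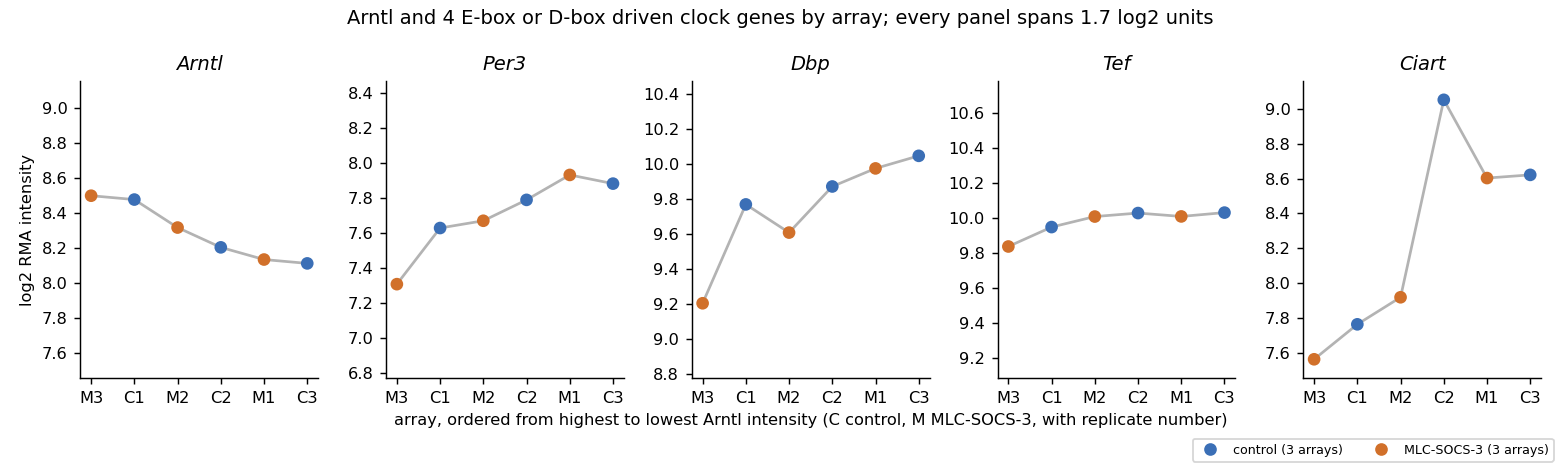
Log2 RMA intensity (vertical axis, the same span in every panel) of Arntl, Per3, Dbp, Tef and Ciart on each array, with arrays ordered along the horizontal axis from highest to lowest Arntl (blue controls, orange MLC-SOCS-3). Arntl falls from 8.50 to 8.11 while Dbp goes from 9.20 to 10.05, and controls and MLC-SOCS-3 arrays alternate along the axis.

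Among the other clock genes of the list, Ciart, Hlf and Nfil3 are given for their place in the same loop; they were chosen after their values were seen. Ciart, a repressor of ARNTL and CLOCK that is itself driven by E-boxes, had the widest range of the 25 clock genes, 1.49 or 2.80-fold. It read 7.77, 9.05 and 8.62 in controls and 8.60, 7.92 and 7.57 on MLC-SOCS-3 replicates 1, 2 and 3, and was opposite to Arntl in 13 of 15 pairs. Its group difference was -0.45 ± 0.40 (SE; limma adjusted p = 0.88). Hlf, the third D-box activator, was also opposite to Arntl in 13 of 15 pairs, with a range of 0.30, and 2.34% of all genes were opposite in 13 or more. Nfil3, which represses the D-box sites that Dbp activates, read 8.71, 8.997 and 8.22 in controls and 8.37, 8.73 and 8.80 on MLC-SOCS-3 replicates 1, 2 and 3. It was ordered against Arntl in 4 of 15 pairs, and 13.9% of all genes were in 4 or fewer. The other 12 measured genes of the list were opposite to Arntl in 6 to 12 pairs. Rora (6), Csnk1d (6), Gsk3b (7), Cry2 (8) and Bhlhe41 (8) were among those near the 7 of the median gene.

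Per1, the Period gene that responds fastest to hormones and stimuli, followed another order and had the widest range of the 10. It read 8.58, 9.55 and 8.94 on control replicates 1, 2 and 3. It read 9.25, 8.91 and 8.60 on MLC-SOCS-3 replicates 1, 2 and 3. Control replicate 2 was highest and control replicate 1 lowest, so the controls alone spanned the whole 1.96-fold range, and 1.44% of all genes had a range at least as wide. The group means were 9.03 ± 0.49 and 8.92 ± 0.33 (SD, n = 3 each), and the difference was -0.10 ± 0.28 (SE; 95% interval -0.79 to 0.58; limma adjusted p = 0.97). It was 0.16 without control replicate 2 and 0.06 without MLC-SOCS-3 replicate 3.

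Per2, its close relative, was also highest on control replicate 2. It read 7.21, 7.54 and 7.26 in controls and 7.25, 7.30 and 7.03 on MLC-SOCS-3 replicates 1, 2 and 3. The lowest value was that of MLC-SOCS-3 replicate 3, and the groups overlapped. The difference was -0.15 ± 0.12 (SE; 95% interval -0.44 to 0.15; limma adjusted p = 0.87), and it was -0.045 without control replicate 2 and -0.063 without MLC-SOCS-3 replicate 3. Per1 and Per2 were each opposite to Arntl in 11 of 15 pairs, as 12.3% of all genes were in 11 or more.

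Control replicate 2 also stood apart for genes that respond to glucocorticoid hormone, as Per1 does, and for immediate-early genes. Of 15 glucocorticoid response genes other than Per1, 11 were highest on that array, as were 10 of 15 immediate-early genes. The share of all genes that were highest on that array was not counted, so these counts have no background beside them. The mean of the glucocorticoid list lay 0.36 above its 6-array mean there, against -0.21 and -0.27 on control replicates 1 and 3 and 0.05, 0.06 and 0.004 on MLC-SOCS-3 replicates 1, 2 and 3. The immediate-early mean lay 0.53 above on control replicate 2, and between -0.31 and 0.02 on the other 5 arrays. MLC-SOCS-3 replicate 1, which had the next highest Per1, had the lowest immediate-early mean. The part of these signals in the Per1 and Per2 values was not tested.

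**Figure D3:**
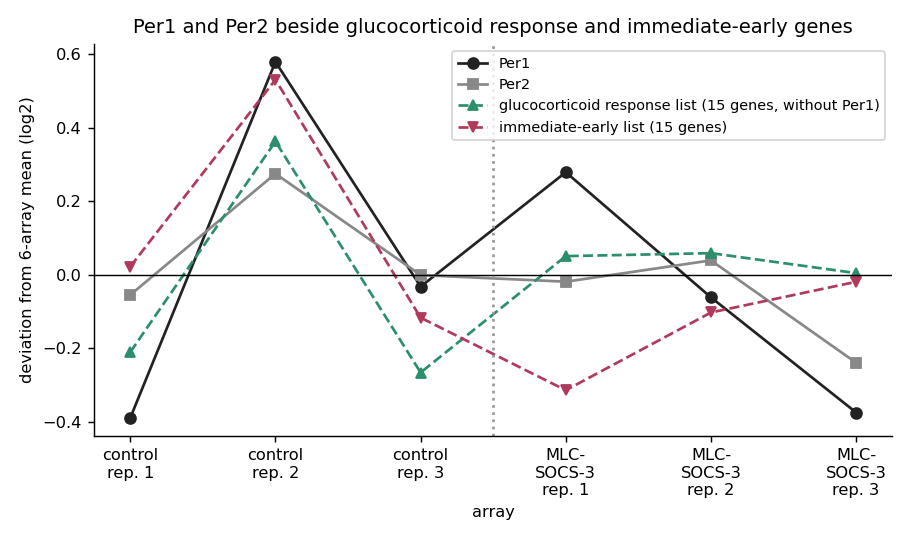
Deviation from the 6-array mean, in log2 units, of Per1 and Per2 (single genes) and of the glucocorticoid response list without Per1 and the immediate-early list (means over 15 genes each) on the 6 arrays, controls left of the dotted line. All 4 lines peak on control replicate 2, and on MLC-SOCS-3 replicate 1 Per1 is high while the immediate-early mean is at its lowest, -0.31.

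Nr1d1, which encodes the repressor REV-ERB alpha that acts on Arntl through ROR elements, read 11.46, 11.13 and 11.18 in controls. It read 11.22, 10.98 and 11.03 on MLC-SOCS-3 replicates 1, 2 and 3. Control replicate 1 was the highest array, and MLC-SOCS-3 replicates 2 and 3 were below all 3 controls while replicate 1 was above 2 of them. The group means were 11.26 ± 0.17 and 11.08 ± 0.13 (SD, n = 3 each). The difference of -0.18 ± 0.12 (SE; 95% interval -0.46 to 0.10; limma adjusted p = 0.86) was -0.08 without control replicate 1. Nr1d1 was opposite to Arntl in 9 of 15 pairs: control replicate 1 was high for both genes.

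Nr1d2, which encodes the related REV-ERB beta, was close to flat. It read 10.56, 10.52 and 10.54 in controls and 10.48, 10.52 and 10.51 on MLC-SOCS-3 replicates 1, 2 and 3. It was the only member whose groups did not overlap, with all MLC-SOCS-3 arrays lower, but control replicate 2 and MLC-SOCS-3 replicate 2 both rounded to 10.52. Over all probe sets 6.76% had lower and 5.04% higher groups without overlap, so 1 of 10 lower and 0 of 10 higher are near that background. The difference was -0.03 ± 0.06 (SE; 95% interval -0.18 to 0.11; limma adjusted p = 0.94), and 98.9% of all genes had a range at least as wide as its 0.08. It was opposite to Arntl in 8 of 15 pairs.

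Cry1, a repressor of ARNTL and CLOCK whose mRNA peaks later than that of the Per genes, read 7.68, 7.73 and 7.75 in controls. It read 7.60, 7.71 and 7.79 on MLC-SOCS-3 replicates 1, 2 and 3, the lowest and highest of the 6 both being MLC-SOCS-3 arrays. The difference was -0.02 ± 0.07 (SE; 95% interval -0.20 to 0.16; limma adjusted p = 0.98) and was 0.03 without MLC-SOCS-3 replicate 1. Its order was opposite to Arntl in 7 of 15 pairs, the number of the median gene.

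Each array was then described by 2 groups of clock genes, set by the known peak of their mRNA and by their regulatory elements, not by what their proteins do. For the day-to-dusk side these were genes driven through E-boxes with a peak in the day or near dusk. For the night-to-dawn side they were genes that peak late in the night or near dawn, or are read through ROR elements. Bhlhe40, opposite to Arntl in 12 of 15 pairs, was on neither side. The day-to-dusk side holds Per1, Per2, Per3, Nr1d1, Nr1d2, Dbp, Tef, Hlf, Ciart and Bhlhe41, and the night-to-dawn side Arntl, Clock, Cry1 and Nfil3, of which Cry1 and Nfil3 encode repressors. The mean deviation of the first minus that of the second was -0.16, 0.10 and 0.25 on control replicates 1, 2 and 3. It was 0.27, -0.08 and -0.39 on MLC-SOCS-3 replicates 1, 2 and 3. Both groups held arrays above and below 0, and the MLC-SOCS-3 arrays lay at both ends. With only the 10 members on the 2 sides the values were -0.10, 0.19 and 0.13 in controls and 0.21, -0.06 and -0.37 in MLC-SOCS-3, so no array changed its sign. Because the labels give no clock time for the muscles, differences in hour between arrays and differences in the clock itself cannot be told apart.

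**Figure D4:**
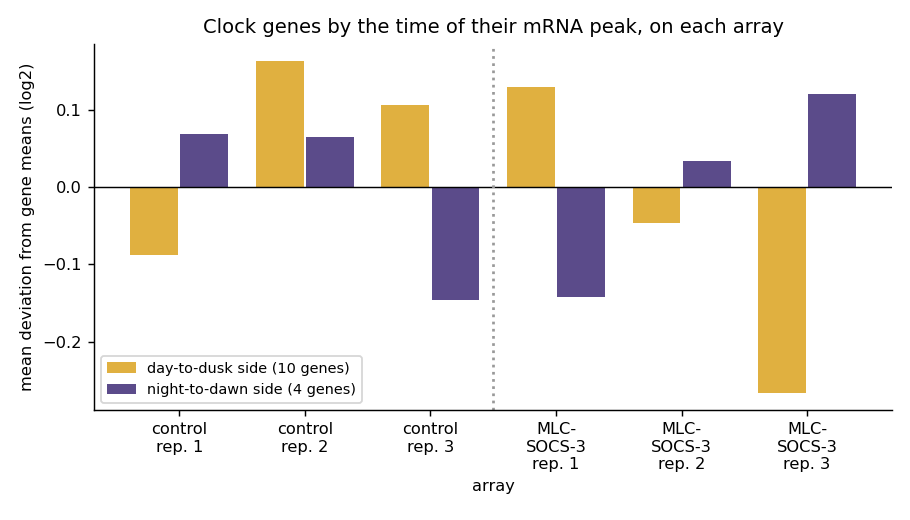
Mean deviation from the gene means, in log2 units, of the 10 day-to-dusk genes (yellow bars) and the 4 night-to-dawn genes (purple bars) on each of the 6 arrays, controls left of the dotted line. The bars point in opposite directions on 5 arrays; on control replicate 2 both are above 0.

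The other genes of the clock pathway were compared in the same fit, from a list of 18 of which 15 were measured. None rose or fell (limma, adjusted p under 0.05). Of the 15, 1 had an unadjusted p under 0.05, against 969 of 19938 genes and 5.92% of all probe sets. Their median difference was -0.02, with 9 negative and 6 positive. When each array was centred on its median the median difference was 0.003, and that of all genes moved from -0.02 to 0.003 too. The gene with the smallest p was Bhlhe40, which encodes the E-box repressor DEC1. It read 9.59, 9.67 and 9.69 in controls and 9.47, 9.27 and 8.77 on MLC-SOCS-3 replicates 1, 2 and 3. All 3 MLC-SOCS-3 arrays were below the controls. Without overlap of the groups, 2 of the 15 genes were lower and 1 higher, against 1548 and 901 of all 19938 genes. The difference was -0.48 ± 0.18 (SE; 95% interval -0.92 to -0.04; limma adjusted p = 0.82), and -0.28 without MLC-SOCS-3 replicate 3. Bhlhe41, its relative DEC2, was at 0.13 ± 0.08. Rorb, a receptor for ROR elements, was at -0.29 ± 0.13 and Timeless at -0.16 ± 0.10, both below the median probe set.

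**Figure D5:**
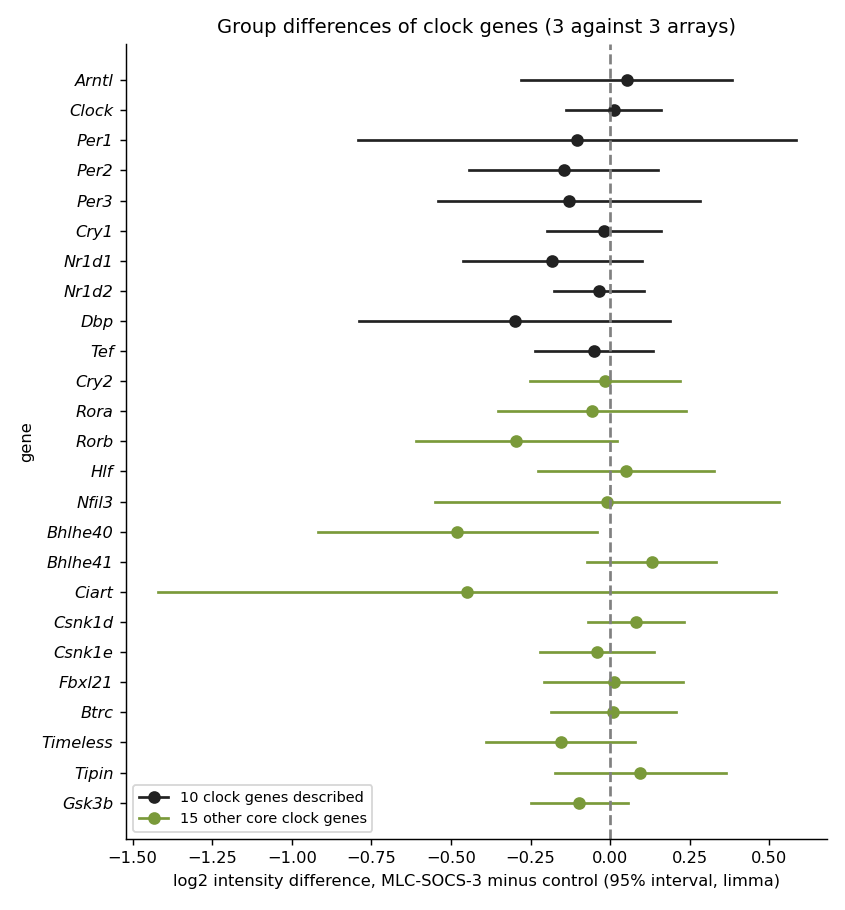
Log2 intensity difference, MLC-SOCS-3 minus control, with its 95% interval from limma (horizontal axis) for the 10 clock genes (black) and the 15 other core clock genes (green), 3 arrays against 3. The interval holds 0 for all but Bhlhe40 (-0.92 to -0.04), which did not pass after adjustment over all probe sets.

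Genes known to cycle under the clock or to lie downstream of it in muscle gave no call either. Of 25 listed, 24 were measured: 12 were positive, 12 negative, the median was 0.003, and 5 had an unadjusted p under 0.05. Over the whole array 969 of 19938 genes, and 5.92% of probe sets, had an unadjusted p this low. Tbc1d1, a regulator of glucose transporter traffic, read 10.50, 10.38 and 10.19 in controls and 10.64, 10.68 and 10.80 on MLC-SOCS-3 replicates 1, 2 and 3, without overlap. Its difference was 0.35 ± 0.10 (SE; limma adjusted p = 0.80). Groups without overlap were higher for 4 of the 24 genes and lower for 2, against 901 and 1548 of all 19938 genes. The uncoupling protein gene Ucp3 was at 0.21 ± 0.07 and Leo1, a subunit of the PAF1 transcription complex, at -0.22 ± 0.08. Myod1, a myogenic factor whose gene is bound by ARNTL and CLOCK, was at -0.48 ± 0.18. The limma adjusted p of these 3 was 0.82.

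The glucocorticoid and immediate-early lists were compared as well. Of 16 measured glucocorticoid genes, Per1 included, 10 were positive and 6 negative, with a median of 0.04, 0 called by limma and 0 with an unadjusted p under 0.05. That median was 0.19 without control replicate 2, -0.0039 without control replicate 1 and -0.020 without control replicate 3. The 4 with the smallest p, Pdk4, Foxo1, Mt2 and Foxo3, were at 0.16 ± 0.08, 0.17 ± 0.18, 0.43 ± 0.53 and 0.08 ± 0.11 (SE). Of 15 immediate-early genes, 12 were negative with a median of -0.30 (-0.16 without control replicate 2), and 0 were called. An unadjusted p under 0.05 was found for 3 of the 15, against 969 of 19938 genes and 5.92% of all probe sets. Without overlap of the groups, 5 of the 15 were lower and 0 higher, against 6.76% and 5.04% of all probe sets. Of all 19938 genes, 1548 were lower and 901 higher without overlap. The phosphatase gene Dusp1 was at -0.81 ± 0.21, and the transcription factor genes Nr4a1, Egr3 and Junb were at -0.44 ± 0.14, -0.39 ± 0.11 and -0.30 ± 0.13. Dusp1, like Per1, was highest on control replicate 2, at 12.12. The Dusp1 difference was -0.59 without that array.

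The genes whose profile over the 6 arrays came closest to that of Arntl were sought among all 19938 genes by the root mean square difference between mean-centred log2 values. They were Ccdc189 (0.03), Actl10 (0.03) and Diaph1 (0.04), where a flat profile would differ from Arntl by 0.15. For Dbp they were Eqtn (0.08), D3Ertd751e (0.10) and Gsdmcl-ps (0.10), against 0.28 for a flat profile. None of these 6 is on the clock lists, and Ccdc189 and the 3 genes near Dbp lay below the median probe set.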

How the data were processed

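RNA of 6 tibialis anterior samples (300 ng of total RNA each) was hybridised to 1 Affymetrix array per sample. The deposited table holds 1 log2 intensity per probe set and array. The submitters' processing notes name RMA and Affymetrix Expression Console, with no version or genome build. RMA compresses folds of dim genes. Values ran from 1.41 to 15.1 with array medians of 5.98 to 6.04 and were used as deposited. There are no detection calls. The number of arrays limits the precision.

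Of 35557 probe sets, 21789 had 1 gene symbol in the platform annotation, and 21698 of these matched the GRCm38.p6 gene table. A gene with several probe sets was represented by the brightest. Groups were compared with limma 3.58.1 in R 4.3.3 (lmFit, eBayes, two-sided) over all probe sets, with Benjamini-Hochberg adjustment and a threshold of 0.05. In 5 simulations with independent scatter, changes were planted in genes above the median level. The fit recovered 94% of 2-fold and 40% of 1.5-fold changes, with at most 14 false calls in a simulation. Recovery was not counted apart for genes with wide scatter, so these shares do not describe Per1 or Dbp. Their within-group SD was 0.42 and 0.29, against 0.11 for the median gene. The members and gene lists were chosen with earlier results of these data known. Named genes were the members, Socs3, up to 4 genes per list by smallest p, and the 3 profiles nearest to Arntl and to Dbp. Alternatives were other scaling, other sets of probe sets, a replicate block and leaving out each array.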

Additional observations from a re-analysis of the deposited data

How the results depend on the processing

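No clock gene of the 10 was called by limma under any of the 13 alternatives, so that count stayed at 0. The number of probe sets called over the array was 0 as reported, 1 with 1 probe set per gene, 1 with only probe sets of 1 gene symbol, 11 with listed probe sets under a mean-variance trend and robust moderation, and 0 to 1 with 1 array left out. Centring, quantile normalization and the probe set choice turned no sign among the members. Leaving out 1 array did for 6: Arntl ranged from -0.039 to 0.16, Clock from -0.0043 to 0.035, Per1 from -0.33 to 0.16, Per3 from -0.28 to 0.034, Cry1 from -0.064 to 0.031 and Tef from -0.080 to 0.0062. The median of the other core clock genes ranged from -0.076 to 0.016 with 1 array left out, and that of the clock output genes from -0.054 to 0.030, or 0.022 with arrays centred; these list settings, and the array-pair counts within groups or with 1 array left out, were added after seeing the data. With the replicate number as a replicate block limma called 0 probe sets. Deviations of same-numbered arrays correlated at -0.03, -0.02 and -0.04, and those of differently numbered arrays at -0.04 to 0.06. Values this close to 0 cannot show whether the numbers pair the samples, and the labels do not say. Limits: 3 arrays a group, and no collection hour in the sources used here.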
